A study of Mus musculus with 8 samples.

Results

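The genes described here are 8 members of the ankyrin repeat and SOCS box (Asb) family, *Asb1*, *Asb2*, *Asb8*, *Asb10*, *Asb11*, *Asb14*, *Asb15* and *Asb18*, among 40690 distinct genes of a mouse heart count table. They were found by their symbols, and the set was chosen by their values in NAE1CKO and control hearts, so that comparison is given for them as a description with no test. The table holds 18 Asb genes, and the other 10 were followed alongside. Of the 8, all passed the filter on low counts, which left 13622 genes of the table for testing.

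Polyadenylated RNA of ventricles was sequenced in 4 libraries of NAE1CKO mice and 4 of littermates serving as control (CTL), taken at postnatal day 1 by the series' design text. NAE1CKO mice carry a floxed NAE1 allele and the αMHC-Cre transgene, whose promoter is active in cardiomyocytes (CMs), so the other cells of the ventricle keep *Nae1*. The labels call the controls wild type, and whether they carried the Cre transgene is not stated. The lines were kept on the C57BL/6J background. The tissue tag reads ventricle, although the cell line tag reads cardiomyocyte and the cell type tag neonatal. Libraries are called by their titles, KO for NAE1CKO and WT for CTL. The first number of the titles puts KO-443-3, KO-443-5, WT-443-7 and WT-443-8 together (title set 1) and KO-453-6, KO-453-7, WT-453-3 and WT-453-5 (title set 2), and its meaning is not stated.

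SOCS box proteins are the exchangeable part of a ubiquitin ligase. Their box binds elongin B and elongin C, which link it to cullin 5 and the RING protein RNF7, and the ankyrin repeats of the Asb proteins are one of the surfaces that hold the protein to be ubiquitinated. Cullin 5 is switched on by conjugation of NEDD8, and the NEDD8-activating enzyme is a pair of NAE1 and UBA3. In mouse striated muscle *Asb2* is the best studied member, and its product targets filamins and desmin for degradation.

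Stretches of the coding sequence that spell the SOCS box are shown for the 4 members with the largest differences, for *Asb2* and for *Asb11*, since this box is what joins the family to cullin 5. They come from GENCODE M21 on GRCm38, are written 5′ to 3′ on the strand of the gene, and each lies within 1 exon. Capitals mark the codons of the motif at which the box begins and, at the end, those of the leucine and proline motif that contacts cullin 5. *Asb11* has no match to the second pattern in this stretch.
Asb10, chr5:24533705-24533785, minus strand: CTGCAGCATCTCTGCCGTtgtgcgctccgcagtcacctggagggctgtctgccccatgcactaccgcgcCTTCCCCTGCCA
Asb18, chr1:89952729-89952809, minus strand: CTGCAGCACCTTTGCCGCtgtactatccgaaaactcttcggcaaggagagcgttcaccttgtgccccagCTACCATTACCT
Asb14, chr14:26914986-26915075, plus strand: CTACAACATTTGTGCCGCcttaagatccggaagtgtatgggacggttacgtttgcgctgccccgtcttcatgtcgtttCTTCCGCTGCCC
Asb15, chr6:24570633-24570722, plus strand: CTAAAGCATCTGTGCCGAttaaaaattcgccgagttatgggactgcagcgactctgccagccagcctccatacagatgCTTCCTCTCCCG
Asb2, chr12:103321580-103321660, minus strand: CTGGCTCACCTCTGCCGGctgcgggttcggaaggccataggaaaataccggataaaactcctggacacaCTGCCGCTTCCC
Asb11, chrX:164458635-164458727, plus strand: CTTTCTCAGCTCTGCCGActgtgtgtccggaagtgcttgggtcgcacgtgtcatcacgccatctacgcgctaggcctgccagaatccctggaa

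The whole proteins, translated from these transcripts, run from 288 residues for *Asb8* to 634 for *Asb2*. Aligned in pairs, the 8 shared between 24.2% and 49.1% of the residues of the shorter protein, with a median of 29.2% over 28 pairs. The closest pair was *Asb14* and *Asb15* (49.1%), and the next was *Asb10* and *Asb18* (42.0%). Among the 8, these are also the 4 genes with the largest differences described below. *Asb2*, which differed little between the groups, was closest to *Asb14* (33.8%) and *Asb15* (32.6%). *Asb11* was closest to 2 genes outside the set, *Asb5* (55.4%) and *Asb9* (49.7%). The likeness in sequence was not used to choose the genes, but their differences were. With 8 genes, the likeness is given only as a description.

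Control hearts held these genes at very different levels. Levels are in CPM, the counts scaled to a common library size. To compare different genes they were divided by the length of all annotated exons of the gene, whichever transcripts are expressed. The order of genes at close levels can depend on that choice. Per kb of exon, *Asb2* stood at 182 ± 10.4 CPM per kb (SD, n = 4 CTL libraries). It was followed by *Asb8* at 40.7 ± 1.88, *Asb11* at 20.3 ± 0.744 and *Asb10* at 15.3 ± 0.672. None of these 4 overlapped its neighbour in the order. The next of the 8 were *Asb14* at 4.09 ± 0.587 CPM per kb, *Asb18* at 3.44 ± 0.99, *Asb1* at 3.27 ± 0.0528 and *Asb15* at 2.92 ± 0.155. *Asb14*, *Asb18* and *Asb1* overlapped each other across the CTL libraries, and so did *Asb18* and *Asb15*, so their order is not set by these data, while *Asb1* was above *Asb15* in each of the 4 libraries.

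**Figure D1:**
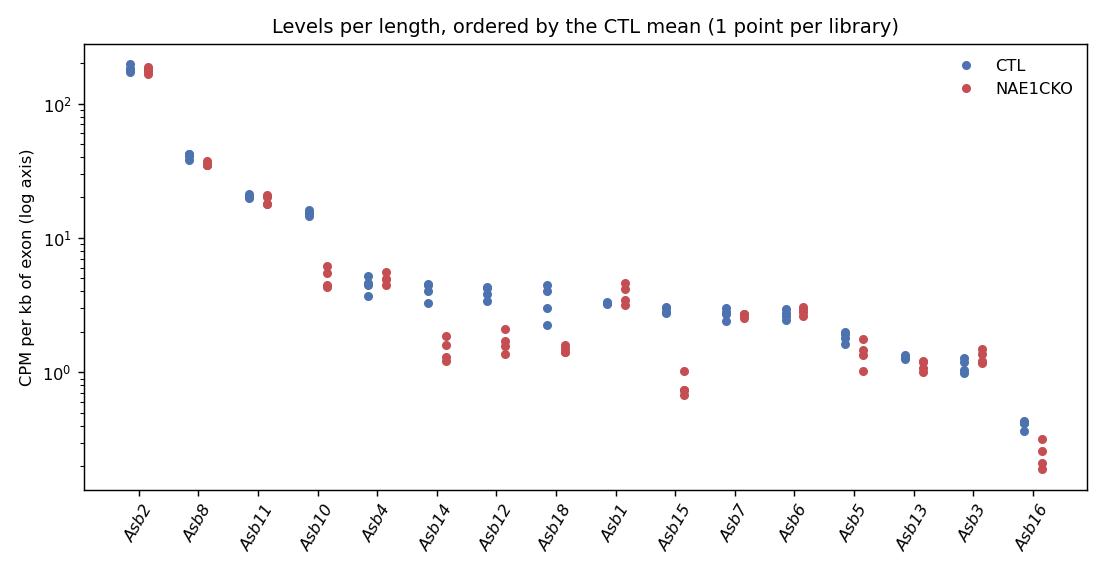
Level of 16 Asb genes in CPM per kb of exon (log axis), with 1 point per library for CTL (blue) and NAE1CKO (red), ordered by the CTL mean. *Asb2* is at the top at 182 CPM per kb in CTL, and *Asb10*, *Asb14*, *Asb12*, *Asb18* and *Asb15* show red points below all blue ones. So do *Asb8*, *Asb13* and *Asb16*, by smaller margins on this axis.

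*Asb10*, *Asb14*, *Asb15* and *Asb18* were far lower in NAE1CKO ventricles, with a mean CPM at 27.2% to 43.3% of CTL, and the other 4 lay between 87.4% and 117% of it. By direction, 5 of the 8 had no overlap between the groups and were lower in NAE1CKO, and 0 were apart and higher. Over all genes tested, 17.9% were apart and lower and 18.6% apart and higher. Since this contrast chose the genes, nothing is read from their count. In bulk tissue, fewer cells of a type and less of an RNA per cell cannot be told apart.

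*Asb15*, which has been studied in muscle growth of rats and chickens, showed the largest difference. It measured 4.63, 3.31, 3.31 and 3.03 CPM in NAE1CKO and 12.4, 13.5, 12.7 and 13.9 CPM in CTL, with the libraries of title set 1 first and in the order of their titles above, as in the sentences that follow. Each NAE1CKO value was well below the lowest CTL value. The log2 fold change was -1.87 ± 0.14 (SE of the edgeR fit, here and below), and 0.103% of all genes tested had a lower one.

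*Asb10*, in which human variants have been linked to glaucoma, was the most abundant of the 4. It stood at 12.6, 17.4, 15.3 and 12.2 CPM in NAE1CKO and at 40.9, 42.4, 45.4 and 43.5 CPM in CTL. The gap between the groups was wider than the range of either, and the means were 14.4 ± 2.46 CPM in NAE1CKO and 43.0 ± 1.89 CPM in CTL (SD, n = 4 each). The log2 fold change was -1.58 ± 0.11. Per length, its NAE1CKO level of 5.13 CPM per kb was close to that of *Asb4* in the same hearts, at 4.99.

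*Asb14*, the closest relative of *Asb15* in the set, read 3.34, 4.04, 4.75 and 3.09 CPM in NAE1CKO and 8.38, 10.3, 11.7 and 11.4 CPM in CTL. No values overlapped, and the library WT-443-7 was the lowest of its group. Its log2 fold change was -1.45 ± 0.16.

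*Asb18*, the closest relative of *Asb10* in the set, read 5.6, 5.67, 6.32 and 5.95 CPM in NAE1CKO and 12, 8.91, 17.6 and 16 CPM in CTL. The NAE1CKO values lay close together, with a coefficient of variation of 5.53%, whereas those of CTL spread by 28.8%. Both CTL libraries of title set 2 were above both of set 1. The log2 fold change was -1.21 ± 0.19.

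*Asb8*, for which TBK1 has been reported as a substrate, was lower by a small amount. Its values were 84.2, 89.4, 84.7 and 84.6 CPM in NAE1CKO and 101, 102, 97.5 and 92.0 CPM in CTL, which did not overlap but left a gap of a few CPM. The log2 fold change was -0.20 ± 0.053, and it was -0.12 where library totals alone were used for scaling.

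*Asb2* had 638, 658, 583 and 624 CPM in NAE1CKO and 604, 639, 693 and 636 CPM in CTL. The groups overlapped throughout, and the log2 fold change of -0.04 ± 0.059 took the other sign (0.04) when library totals alone were used for scaling. *Asb2* ranked 146 by mean CPM in CTL among the genes tested.

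*Asb11*, whose product targets the apoptosis factor BIK, had 51.0, 51.1, 59.2 and 57.2 CPM in NAE1CKO and 60.9, 57.7, 56.0 and 57.0 CPM in CTL. The libraries of title set 1 gave lower values in NAE1CKO and those of set 2 slightly higher ones. The log2 fold change over all was -0.08 ± 0.064.

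*Asb1* alone among the 8 had a higher mean in NAE1CKO, at 22.2, 20.3, 29.5 and 26.8 CPM against 21.2, 20.6, 21.4 and 21 CPM in CTL. The CTL values differed by less than 1 CPM, while the NAE1CKO libraries of title set 2 stood above the rest and KO-443-5 was below every CTL library. The log2 fold change was 0.23 ± 0.11.

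**Figure D2:**
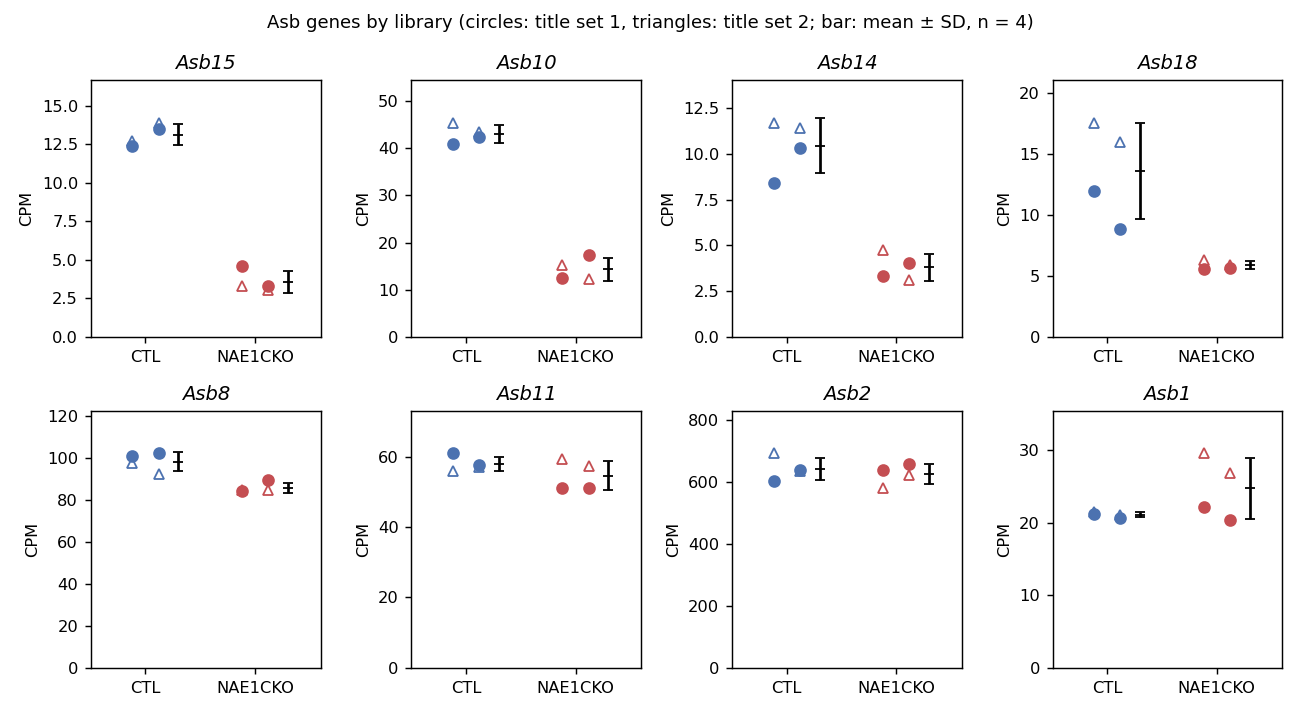
CPM of the 8 Asb genes in each library, with circles for title set 1, triangles for title set 2, and a bar for the mean and SD of 4 libraries. In the upper row, all NAE1CKO points lie below all CTL points, as for *Asb15*, where they are at 4.63 CPM or less against 12.4 or more.

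Summed over the 8 genes, CTL libraries held 861 to 956 CPM and NAE1CKO libraries 787 to 849 CPM. *Asb2* made up 71.4% ± 0.98 of that sum in CTL and 76.5% ± 1.61 in NAE1CKO (SD, n = 4 each). The share of *Asb10*, *Asb14*, *Asb15* and *Asb18* together was 8.90% ± 0.523 in CTL and 3.38% ± 0.369 in NAE1CKO. Counted per length it was 9.48% ± 0.534 and 3.65% ± 0.443.

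The 10 further Asb genes, left over when the set was chosen by its values, were not part of it, and 8 of them passed the filter. By edgeR's quasi-likelihood test with adjustment over all genes tested, 2 of the 8 fell and 0 rose, where 17.6% of all genes tested fell and 18.6% rose. At an unadjusted p under 0.05, 0 were higher, and 0 rose under DESeq2 or limma-voom. Their median log2 fold change was -0.13. *Asb12* fell from 6.31 ± 0.673 to 2.70 ± 0.503 CPM, a log2 fold change of -1.22 ± 0.16 (adjusted p = 0.000115), with values of 2.17 to 3.36 CPM in NAE1CKO and 5.44 to 6.93 in CTL. Its sequence was closest to that of *Asb1* (39.0%), the member with a higher mean in NAE1CKO. *Asb16*, closest in sequence to *Asb18* and *Asb10* (37.7% and 34.9%), fell from 1.16 ± 0.0825 to 0.699 ± 0.165 CPM, a log2 fold change of -0.73 ± 0.25 (adjusted p = 0.0353). It rests on 124 counts in all, and its call was lost under DESeq2 (adjusted p = 0.113) and without library KO-443-5 (0.0612), KO-453-6 (0.0905) or KO-453-7 (0.0799) or library WT-443-7 (0.0717), WT-443-8 (0.0772) or WT-453-3 (0.0729).

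The other 6 did not pass. *Asb13*, which targets the transcription factor SNAI2, had a log2 fold change of -0.22 ± 0.11 (adjusted p = 0.148) although its groups did not overlap. For *Asb5* it was -0.39 ± 0.18 (adjusted p = 0.114), past the threshold only without library KO-443-5 (0.0489) among the alternatives tried. *Asb3*, known for the TNF receptor encoded by *Tnfrsf1b*, had 0.22 ± 0.13 and *Asb4*, expressed in developing vessels, 0.14 ± 0.11. *Asb6*, known for the adaptor encoded by *Sh2b2*, had 0.09 ± 0.087 and *Asb7* -0.04 ± 0.082. *Asb9* had 2 counts and *Asb17*, a gene of the testis, 12 counts over the 8 libraries, too few to test. Exons of *Asb3*, *Asb5* and *Asb17* overlap those of other genes, whereas 0 of the 8 main genes have such an overlap in GENCODE M21.

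**Figure D3:**
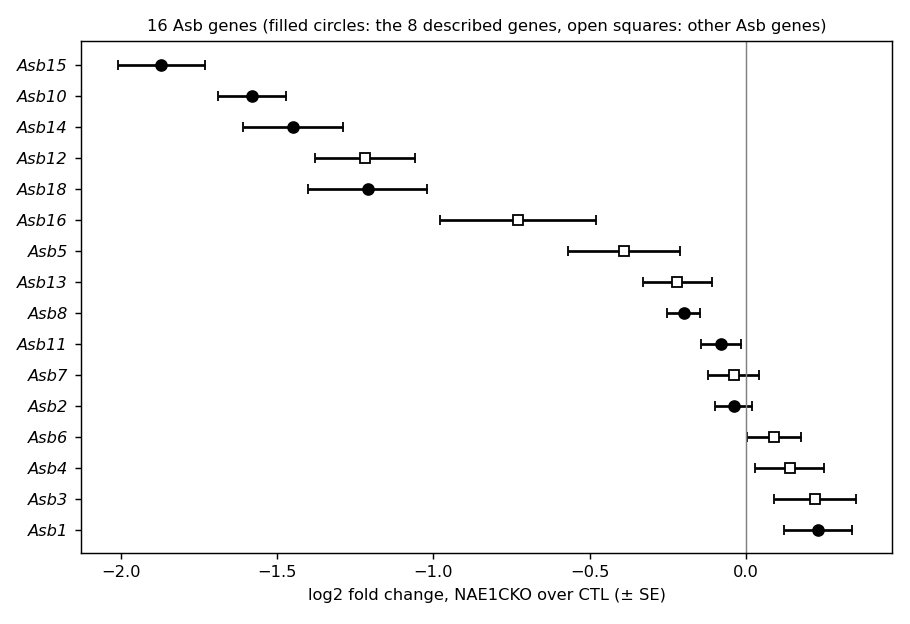
Log2 fold change of 16 Asb genes in NAE1CKO over CTL with the SE of the edgeR fit, filled circles for the 8 described genes and open squares for the others. *Asb15*, *Asb10*, *Asb14*, *Asb12* and *Asb18* form the group between -1.87 and -1.21, and *Asb16* follows at -0.73.

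The title sets give a comparison that did not enter the choice of genes. Of the 8 members, 0 differed between the title sets by edgeR's quasi-likelihood test with genotype in the model, where 1.06% of all genes tested did. At an unadjusted p under 0.05 there were 2 of the 8, where 2336 of the 13622 genes tested passed that threshold, namely *Asb18* with a log2 difference (set 1 over set 2) of -0.43 ± 0.14 (adjusted p = 0.144) and *Asb1* with -0.22 ± 0.087 (adjusted p = 0.216). *Asb18* passed the threshold without library KO-453-7 (adjusted p = 0.0174), a fit in which 1528 genes were called in place of 144, whereas leaving out any other library gave 12 to 78. DESeq2 and limma-voom called 0 members.

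The difference between genotypes was next compared between the title sets by the interaction term. Over all genes 0% were called by edgeR, with 1307 past an unadjusted p of 0.05 and 41 called by DESeq2 and 0 by limma-voom. The edgeR count was 1110 without library KO-453-6, 28 without KO-453-7 and 0 to 3 without any other. Of the members, 0 were called by any of the 3 tools, and 3 had an unadjusted p under 0.05 by edgeR, 0 by DESeq2 and 3 by limma-voom. The 3 by edgeR were *Asb1* with an interaction of -0.38 ± 0.14 on the log2 scale (adjusted p = 0.442), *Asb11* with -0.26 ± 0.095 (adjusted p = 0.448) and *Asb18* with 0.57 ± 0.23 (adjusted p = 0.496). For *Asb18* the ratio of group means was -0.89 on the log2 scale in title set 1 and -1.45 in set 2. That of *Asb15* was -1.71 and -2.07, of *Asb10* -1.47 and -1.69, and of *Asb14* -1.34 and -1.56. Since no library of these 4 genes overlapped between the genotypes, a lower mean in each title set was given beforehand.

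**Figure D4:**
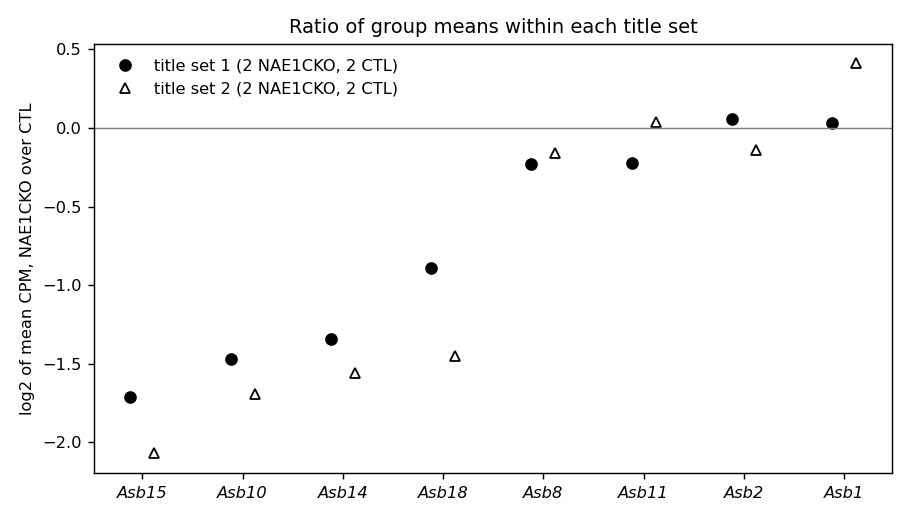
Log2 ratio of mean CPM in NAE1CKO over CTL for the 8 Asb genes, computed from 2 libraries of each genotype in title set 1 (circles) or 2 (triangles). The 4 genes on the left are between -0.89 and -2.07 in both sets, and *Asb11* is at -0.22 in set 1 and 0.04 in set 2.

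The genes next to the members on the chromosome, some of them far away, were read to see whether they moved as well. The nearest tested protein-coding gene on each side gave 16 genes, of which 3 fell, 2 rose and 11 did not pass by edgeR's test. Over all genes tested, 17.6% fell and 18.6% rose. *Ndufa5*, a subunit of respiratory complex I whose annotated start lies 0.131 kb from *Asb15* on the opposite strand, fell by 0.46 ± 0.078 on the log2 scale (adjusted p = 0.00072). On the other side of *Asb15*, *Lmod2*, an actin filament nucleator of muscle, rose by 0.76 ± 0.22 (adjusted p = 0.0326). Beside *Asb8*, *Pfkm*, the muscle phosphofructokinase, fell by 0.70 ± 0.06 (adjusted p = 4.83e-06), and *Ccdc184* had 0.10 ± 0.39.

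Next to *Asb18*, *Ackr3*, a chemokine receptor 189 kb away, rose by 0.43 ± 0.098 (adjusted p = 0.00522) and *Agap1* had a log2 fold change of -0.07 ± 0.053. The neighbours of *Asb10*, *Agap3* and *Abcf2*, had -0.11 ± 0.062 and 0.00 ± 0.051, and those of *Asb14*, *Pde12* (225 kb away) and *Appl1*, had 0.23 ± 0.092 and 0.14 ± 0.057. None of these 5 passed, although *Pde12* did without library KO-453-7 (adjusted p = 0.0472). Beside *Asb2*, *Btbd7* fell by 0.18 ± 0.063 (adjusted p = 0.0424) and *Otub2* had 0.22 ± 0.11. On either side of *Asb1*, *Traf3ip1* and *Twist2* (242 kb away) had -0.23 ± 0.13 and -0.11 ± 0.40. For *Asb11*, *Piga* and *Mospd2* (477 kb away) had 0.33 ± 0.17 and -0.05 ± 0.12, and *Piga* passed without library KO-453-7 (adjusted p = 0.0422).

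Of these calls, 2 were lost when a library was left out, with folds close to those above. That of *Lmod2* was lost, at log2 fold changes of 0.67 to 0.79, without library KO-453-6 (adjusted p = 0.0635) or library WT-443-7 (0.0692), WT-453-3 (0.0839) or WT-453-5 (0.0815). That of *Btbd7* was lost, at -0.19 to -0.14, without library KO-443-3 (0.112), KO-443-5 (0.0993) or KO-453-6 (0.0591), without library WT-443-7 (0.0537), WT-443-8 (0.0838) or WT-453-5 (0.118), and under limma-voom (0.0508).

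Promoter sequences were read in windows of 250 bases before to 50 after the start site (RefSeq, GRCm38.p6), 11 windows for the 8 genes among 32851 in all. Both strands were searched for fixed letters, and a match is only a description of the sequence. The MEF2 motif, named for the myocyte enhancer factors, is in 0.557% of all windows and in that of *Asb18*, at bases -11 to -2 from the start. The CArG motif, the site of serum response factor, is in 1.63% of all windows and in 1 of *Asb2*, at -64 to -55. CATTCC, the letters of the TEAD motif, is in 14.7% of windows, among them that of *Asb10* at -159 to -154 and 1 of *Asb8*. The stretches with the matches in capitals are shown 5′ to 3′ on the strand of the gene.
Asb18, chr1:90014667-90014687, minus strand: agccctgattCTATTTATAGc
Asb2, chr12:103356046-103356075, minus strand: agaaacatacCCATATATGGgctccatgtc
Asb10, chr5:24541122-24541147, minus strand: acctggatgtCATTCCgctgcttccc

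The E-box CANNTG was found for 6 of the 8 genes, with *Asb1* and *Asb8* the exceptions. It is in 7 of their 11 windows and in 72.3% of all windows. ACGTG, the core of the hypoxia response element, was found for *Asb1*, *Asb2*, *Asb8*, *Asb11* and *Asb15* (7 of the 11 windows, 19.6% of all windows). It can lie within an E-box, as it does in *Asb15*. GCGTG, the other form of that core, was found for *Asb8*, *Asb10* and *Asb18* (3 of the 11, 32.4% of all). AGATAA was found for *Asb14* (1 of the 11, 11.2%) and TGACNNNGC for *Asb8* (1 of the 11, 12.4%). TGATAA (9.05% of all windows) and AAGGTCA (4.72%) were found in none of the 11. Of the motifs searched, CANNTG alone was held by *Asb10*, *Asb14*, *Asb15* and *Asb18* together.

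Genes with the most similar profile were sought by the smallest root mean square difference over the 8 libraries, in log2 CPM relative to the CTL mean. For *Asb10* they were *Adhfe1* (0.135) and *Dhrs7c* (0.142), a protein of the sarcoplasmic reticulum. For *Asb14* they were *Hhatl* (0.125) and *Gm10435* (0.148), and *Lmntd1* (0.184) was among those for *Asb15*. For *Asb18* they were *Emilin2* (0.135) and *Hrc* (0.138), which encodes a calcium-binding protein of the sarcoplasmic reticulum. Among these 4, *Asb10* and *Asb14* differed least from each other (0.179) and *Asb15* and *Asb18* most (0.607). For the genes that changed little, the nearest were *Creg1* (0.0591) and *Polk* (0.0662) for *Asb1*, *Asna1* (0.0339) and *Dlg1* (0.0377) for *Asb2*, *2700060E02Rik* (0.026) and *Adh5* (0.0271) for *Asb8*, and *Zdhhc17* (0.0422) and *Wasl* (0.0445) for *Asb11*.

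The ligase that the Asb proteins serve was measured next. This gene list and those that follow were chosen with earlier results of these data known, so their counts are a description. By edgeR's test 17.6% of all genes tested fell and 18.6% rose. Of 9 genes for the cullin 5 core and its NEDD8 pathway, 1 fell and 0 rose, with a median log2 fold change of -0.08. In this list 0 were higher at an unadjusted p under 0.05, and 0 rose under DESeq2 and limma-voom. The gene that fell was the targeted *Nae1*, at 10.6 to 13.2 CPM in NAE1CKO and 22.3 to 24.1 CPM in CTL, with a fold change of -0.96 ± 0.087 on the log2 scale (adjusted p = 7.18e-06). The counts cover the whole gene and the RNA of all cells. *Nedd8* had 0.03 ± 0.052 (adjusted p = 0.685) and *Uba3* 0.10 ± 0.058 (adjusted p = 0.212). *Uba3* passed with scaling by library totals alone (0.0401), which made the count of rising genes 1.

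Of 19 other SOCS box genes, 8 rose and 5 fell, with a median of 0.19, where 18.6% of all genes tested rose and 17.6% fell. The 4 with the smallest adjusted p among those that rose were *Spsb4* (1.1 ± 0.089, adjusted p = 2.91e-06), *Wsb1* (0.54 ± 0.08, adjusted p = 0.000264), *Wsb2* (0.32 ± 0.052, adjusted p = 0.000516) and *Socs2* (0.51 ± 0.092, adjusted p = 0.00119), a brake on growth hormone signaling. *Spsb1* fell by 0.61 ± 0.12 (adjusted p = 0.00147), *Neurl2* by 0.52 ± 0.11 (adjusted p = 0.00236), *Rab40b* by 0.77 ± 0.17 (adjusted p = 0.0033) and *Pcmtd2* by 0.69 ± 0.15 (adjusted p = 0.00579). The fifth to fall, *Socs5*, was named after its value was seen. It fell by 0.23 ± 0.072 (adjusted p = 0.0247), and the call was lost without library KO-443-5 (0.0701) or KO-453-6 (0.0676) or library WT-443-8 (0.0584). *Pcmtd1* (-0.17 ± 0.074) and *Socs4* (-0.16 ± 0.091) did not pass.

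Cullin 2 uses the same elongins with a related box. Of its 13 genes, 4 fell, 2 rose and 7 did not pass, with a median of -0.10. The shares over all genes tested were 17.6% and 18.6%. *Fem1a* fell by 0.35 ± 0.058 (adjusted p = 0.000591), *Klhdc3* by 0.29 ± 0.061 (adjusted p = 0.00292), *Zer1* by 0.38 ± 0.11 (adjusted p = 0.0142) and *Rbx1* by 0.20 ± 0.059 (adjusted p = 0.0208). *Appbp2* rose by 0.17 ± 0.047 (adjusted p = 0.0135) and *Fem1c* by 0.24 ± 0.069 (adjusted p = 0.0182). *Klhdc10* (-0.01 ± 0.049) and *Klhdc2* (-0.10 ± 0.05) did not pass. With library totals alone for scaling, 1 of the 13 fell. The call of *Rbx1* was lost without library KO-443-3 (0.0559), KO-443-5 (0.0557) or KO-453-7 (0.0501) or library WT-443-7 (0.0527) or WT-453-3 (0.0617).

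Of 18 genes whose proteins have been reported as Asb substrates or partners, 5 rose, 1 fell and 12 did not pass, with a median of 0.16. The shares over all genes tested were 18.6% rising and 17.6% falling. The counts give RNA only, and degradation by a ligase acts on the protein. Among substrates of ASB2, *Flnc*, the muscle filamin, rose from 724 ± 41.1 to 1340 ± 101 CPM (log2 fold change 0.89 ± 0.066, adjusted p = 1.55e-06), and *Des*, the intermediate filament of muscle, rose by 0.38 ± 0.074 (adjusted p = 0.00194). *Flna*, named after its value was seen, rose by 0.42 ± 0.12 (adjusted p = 0.023), a call lost without library KO-453-6 (0.0528) or library WT-443-8 (0.0569). *Bik*, the substrate of ASB11, rose by 0.85 ± 0.098 (adjusted p = 4.31e-05), and *Tnfrsf1b*, that of ASB3, by 0.54 ± 0.12 (adjusted p = 0.00406).

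*Hif1an*, an asparagine hydroxylase that modifies ankyrin repeats, fell by 0.16 ± 0.056 (adjusted p = 0.0377). Its call was lost without library KO-443-3 (0.0797), KO-443-5 (0.0895) or KO-453-6 (0.0809) or library WT-443-7 (0.083), WT-453-3 (0.0886) or WT-453-5 (0.0956). *Ckb*, the substrate of ASB9, had -0.11 ± 0.088, and *Rpn1* had 0.17 ± 0.071 and passed without library WT-453-3 (0.0256), with library totals alone for scaling (0.018) and with CM scaling, set by the summed CM genes (0.0329). Exons of *Des*, *Klhdc2*, *Klhdc3*, *Nedd8*, *Neurl2*, *Rpn1*, *Spsb1*, *Spsb4*, *Wsb2* and *Appbp2* overlap other genes on the opposite strand, and the strand setting of the counting is not given in the sources used here.

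**Figure D5:**
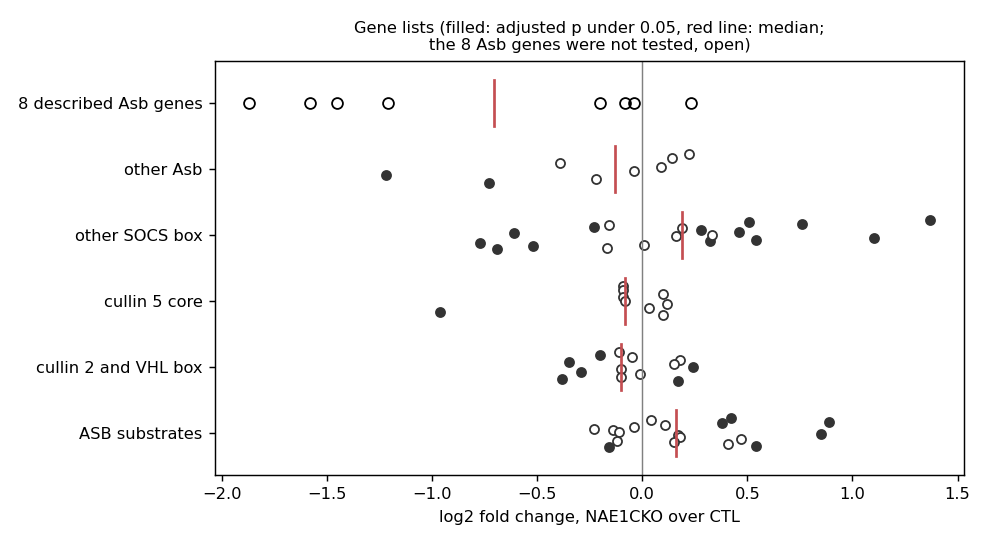
Log2 fold change in NAE1CKO over CTL of the 8 Asb genes (top, not tested) and of the tested genes of 5 lists, filled where the adjusted p is under 0.05, with the median of each list as a red line. The medians are -0.70 for the 8 Asb genes, -0.13 for the other Asb genes, 0.19 for other SOCS box genes, -0.08 for the cullin 5 core, -0.10 for cullin 2 and 0.16 for substrates.

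Facts of the libraries bear on all of these values. Totals were 16304420 to 18593509 counts in NAE1CKO and 13932821 to 18056322 in CTL. Library WT-453-5 stood apart with 12.8% of its counts in the noncoding gene *Gm42418*, against 3.09% to 4.62% elsewhere, and without this library the log2 fold changes of *Asb15*, *Asb10*, *Asb14* and *Asb18* were -1.85, -1.58, -1.41 and -1.13. Summed CM genes measured 51900 to 53800 CPM in NAE1CKO and 50100 to 59500 in CTL, with 2 of 12 lower, 2 higher and a median of -0.04. Among markers of other cells, all 10 macrophage genes were higher (159 to 213 against 105 to 116 CPM summed), 3 of 7 fibroblast genes were lower (2380 to 2830 against 2540 to 3080) and 4 of 7 endothelial genes higher and 1 lower (1440 to 1520 against 1310 to 1400). Of 5 smooth muscle and pericyte genes, 1 was higher and 2 lower (669 to 770 against 652 to 679), and of 6 erythroid genes 0 were called by edgeR (380 to 753 against 412 to 610), 1 at an unadjusted p under 0.05, and 0 by DESeq2 or limma-voom.

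Of 7 atrial genes 3 were higher and 1 lower (1870 to 3100 against 851 to 1050 CPM), led by *Nppa*, which ventricles also express before and after birth. Of 13 skeletal muscle genes, *Myod1*, *Pax7*, *Myh4* and *Tnnc2* were at 0 counts in every library, and of the 5 tested 2 were higher and 1 lower (13.5 to 17.1 against 7.39 to 9.47 CPM summed). The part of these cells in the difference of the Asb genes was not tested. Beside these marker counts, 17.6% of all genes tested were called lower and 18.6% higher. With the scaling set by the summed CM genes in place of all genes, the log2 fold changes of *Asb15*, *Asb10*, *Asb14* and *Asb18* were -1.82, -1.53, -1.40 and -1.14.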

How the data were processed

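The deposited values are whole read counts for each Ensembl gene in 8 ventricle libraries, which the authors made with STAR 2.0.4b and featureCounts 1.4.5 according to the submitters' processing notes, which also list bcl2fastq and Subread. Build, annotation and strand setting of that step: not given in the sources used here. Among 41264 table lines, 574 repeated entries, identical in counts, were dropped. GENCODE M21 (GRCm38), which holds 40254 of the genes, gave positions, exon lengths and transcripts. Counts were analysed in R 4.3.3 with edgeR 4.0.16 (filterByExpr, TMM scaling, quasi-likelihood test with robust estimation, Benjamini-Hochberg adjustment over the 13622 genes tested, threshold 0.05). limma 3.58.1, DESeq2 1.42.0, other scalings and filters, and leaving out each library were alternatives. CPM use TMM-scaled totals, and log2 CPM a prior count of 2. SE were derived from the edgeR F statistic. Totals of 13932821 to 18593509 counts set the precision of counting, so a gene with few counts, such as *Asb16*, is measured less well. The edgeR, DESeq2 and limma-voom fits of genotype, title set and their interaction were run on simulated data with the same dispersion for every gene. A minimum recovery was required of the genotype fits only, and the recovery is not reported here. Proteins were aligned with Biopython 1.88 (BLOSUM62). Replicates are called biological by the study, but which animals or litters they come from is not given, so p-values measure the spread between these libraries. The members and the gene lists were chosen with earlier results of these data known. Genes named are all Asb genes, up to 4 called in each direction by adjusted p and the 2 most abundant not called of each list, the nearest genes, and the 2 most similar profiles, of which 1 is not reported here.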

Additional observations from a re-analysis of the deposited data

Results flagged for a closer look

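Among the 16 groups of 4 values (8 genes, 2 genotypes) 1 held a value far from the others, where chance gives about 1 in 20. *Asb8* in library KO-443-5 stood at 89.4 CPM, with the other 3 NAE1CKO libraries between 84.2 and 84.7.

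*Asb11* went in opposite directions in the 2 title sets. Both NAE1CKO libraries of set 1 (51.0 and 51.1 CPM) were below both CTL libraries of that set (60.9 and 57.7), and both of set 2 (59.2 and 57.2) were above theirs (56.0 and 57.0). The interaction (set 1 over set 2) was -0.26 ± 0.095 on the log2 scale, with an adjusted p of 0.448 by edgeR, so a difference between the sets was not established. The adjusted p ranged from 0.195 to 0.855 over the 13 fits.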

How the results depend on the processing

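Over 19 alternatives, the log2 fold change lay between -2.02 and -1.79 for *Asb15*, -1.69 and -1.50 for *Asb10*, -1.57 and -1.37 for *Asb14*, and -1.37 and -1.05 for *Asb18*, and between 0.14 and 0.31 for *Asb1*. With library totals alone for scaling, *Asb2* moved to 0.04 and *Asb8* to -0.12, and with CM scaling *Asb2* had 0.01. Scaling by library totals alone moved the median of all genes to 0.08 and the share of falling genes among all calls from 48.6% to 32.5%. With CM scaling these were 0.05 and 39.0%. For *Asb11* the range was -0.12 to 0.00.

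Among list counts, the other Asb genes that fell numbered 1 with library totals alone, CM scaling, DESeq2, no filter or a minimum of 1 CPM in 4 libraries, and 1 to 2 when leaving out a library. With a fold above 1.5 required, the other SOCS box genes numbered 3 lower and 3 higher, cullin 2 genes 0 and 0, and substrates 0 lower and 2 higher. With library totals alone, cullin 5 genes had 1 higher, cullin 2 genes 1 lower, and substrates 0 lower and 9 higher. With CM scaling, cullin 2 genes had 1 lower and substrates 0 lower. Substrates had 0 lower without a filter and 0 to 1 when leaving out a library. Members called between the title sets were 0 to 1 when leaving out a library. The causes were not tested.

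Besides *Asb2*, the sign of 7 genes near 0 changed. *Asb7* had 0.05 with library totals alone, 0.01 with CM scaling and -0.09 to 0.00 leaving out a library. *Klhdc10* had 0.07, 0.04 and -0.03 to 0.01 under the same settings. *Mospd2* had 0.02 with library totals alone and -0.15 to 0.01 leaving out a library, and *Agap1* 0.01 with library totals alone. *Abcf2* had -0.02 with upper quartile scaling and -0.02 to 0.02 leaving out a library. *Ccdc184* had -0.02 with limma-voom and -0.37 to 0.32 leaving out a library, and *Twist2* -0.49 to 0.19. Of 29 named genes that were called, 10 lost the call under at least 1 alternative, and 8 that were not called gained one, among them *Appl1* (adjusted p = 0.0279) and *Otub2* (0.0369) with library totals alone and *Pcmtd1* (0.0455) with upper quartile scaling.

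The number in the titles was also used as a replicate block. All genes then gave 2713 lower and 2794 higher calls, against 2401 and 2537, and substrates 2 lower. The set 1 minus set 2 differences of NAE1CKO and CTL had a correlation of 0.19 across genes. Single libraries of the same number had -0.07 to 0.30, against -0.22 to 0.13 for the other number, so the ranges overlapped and the first was higher at both ends. The main fit left the number out, and these correlations do not settle whether it belongs there. With the block, the log2 fold changes of *Asb15*, *Asb10*, *Asb14* and *Asb18* were -1.88, -1.58, -1.45 and -1.18. *Lmod2* lost its call under the block (adjusted p = 0.0673). Depth limits the values of *Asb16*, *Asb9* and *Asb17*.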
